A study of Mus musculus with 6 samples.

Results

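Txnip and its relatives Arrdc1, Arrdc2, Arrdc3 and Arrdc4 are the alpha-arrestins examined here, chosen by their symbols in a deposited table of gene counts. All 5 are among its 22272 distinct symbols, and 4 of them had enough reads to be tested. RNA was sequenced from 6 samples of C2C12, a mouse myoblast line that proliferates as muscle precursors. In 3 control samples, labelled wild type, the titles name green fluorescent protein (GFP). In the other 3 the labels give overexpression of ChREBP-beta, a short form of the glucose-responsive transcription factor ChREBP with high activity, made from the gene Mlxipl. Cells of both groups were undifferentiated and taken on day 0. No source used here gives the means of overexpression, whether the cells came from 1 clone, or the glucose in the medium. Nor do the labels say that replicates were separate cultures, so p-values measure only the spread among these libraries, and that spread may be technical.

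Alpha-arrestins are adaptor proteins built on the arrestin fold. Most carry proline-rich motifs in the tail that hold ubiquitin ligases of the NEDD4 family, and so they steer receptors and transporters at the cell surface into endocytosis. The thioredoxin-interacting protein TXNIP binds thioredoxin, restrains glucose uptake by driving internalization of glucose transporters, and is a classic glucose-induced gene: in muscle and other tissues its promoter is read by the glucose-sensing factors ChREBP and MondoA with their partner Mlx. The comparison asks how the transcripts of this family stood when the active ChREBP isoform was supplied.

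Deposited counts summed to between 17600238 and 19163834 per library, with both groups spread across that range. Mlxipl was counted 11, 13 and 9 times in the GFP libraries and 4083, 4038 and 3805 times in the ChREBP-beta libraries, so the targeted gene fits the labels of all 6. Of 7 myoblast markers fixed for checking the cell type, 7 were called lower with ChREBP-beta, and their summed level was 372 to 410 CPM (library-scaled counts by the TMM method of edgeR, expressed per 1000000) with GFP and 121 to 129 CPM with ChREBP-beta. None of the 7 was at 0. Of 7 markers of differentiated muscle, 5 were tested and all of these were lower, with sums of 23.1 to 24.8 and 1.97 to 3.24 CPM. Markers of other tissues varied among libraries: 5 lung markers summed to 0.523, 135 and 94.1 CPM in GFP replicates 1 to 3 and to 70.2 to 90.9 CPM with ChREBP-beta, 7 hepatocyte markers to 0.576, 1.11 and 31.6 CPM and to 19.5 to 26.7 CPM, and 6 blood markers to 4.08 to 11.3 and 6.30 to 10.3 CPM. Of these 3 lists 5 lung, 6 hepatocyte and 3 blood markers were tested, and none was called different between the groups. For the lung and hepatocyte markers this does not show equal levels, because the GFP libraries differed so widely among themselves. The 6 fibroblast markers summed to 827 to 861 CPM with GFP and 875 to 900 CPM with ChREBP-beta, 4 called higher and 2 lower. Beside these counts, 29.5% of all tested genes were called higher and 29.3% lower, and no marker list was tested against them.

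Txnip rose in every ChREBP-beta library. This gene (ENSMUSG00000038393.14; chromosome 3, 96557957 to 96561883, plus strand, GRCm38, GENCODE M21; protein coding, 8 exons in its longest transcript) was counted 318, 300 and 326 times with GFP and 1470, 1516 and 1414 times with ChREBP-beta. In scaled units these are 16.6, 16.6 and 18.2 CPM against 80.0, 80.6 and 81.8 CPM. The groups lie far apart and each is tight, with a mean of 17.1 ± 0.892 CPM (SD, n = 3) and of 80.8 ± 0.905 CPM (SD, n = 3). This is a 4.71-fold rise, or 2.24 on the log2 scale with an SE of 0.058 (adjusted p = 1.60e-20 by edgeR's quasi-likelihood test). In the ordering of all 12166 tested genes by p it stood at place 101, and by fold at place 189 of the 3584 genes called higher, and 3.63% of tested genes had a larger change in either direction. GFP replicates 1 and 2, at 16.6 CPM of Txnip each, had lung marker sums of 0.523 and 135 CPM and hepatocyte marker sums of 0.576 and 1.11 CPM. GFP replicate 3, the highest of the group at 18.2 CPM of Txnip, had 94.1 CPM of lung and 31.6 CPM of hepatocyte markers. The part of these markers and of the lower myoblast markers in the rise of Txnip was not tested, and in bulk RNA fewer cells of a type and less RNA per cell cannot be told apart.

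The stretch just before the start of Txnip is shown because it holds a match to a loose form of the carbohydrate response element. That element is the pair of short sites at which ChREBP or MondoA with Mlx binds. The upstream stretch of Arrdc4 is set beside it because that gene is also known as a glucose-responsive target of MondoA. Both are from RefSeq (build GRCm38.p6), read 5′ to 3′ on the strand of the gene and ending at the base before its start. Capitals mark the matches of the motifs searched, ATTGG being CCAAT on the opposite strand.
Txnip (chr3:96557707-96557956, plus strand): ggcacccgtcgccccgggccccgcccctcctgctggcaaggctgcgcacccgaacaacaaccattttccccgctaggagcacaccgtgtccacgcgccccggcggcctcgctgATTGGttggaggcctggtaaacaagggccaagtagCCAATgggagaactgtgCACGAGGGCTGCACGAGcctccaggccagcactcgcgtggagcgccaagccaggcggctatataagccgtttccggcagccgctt
Arrdc4 (chr7:68749239-68749488, minus strand): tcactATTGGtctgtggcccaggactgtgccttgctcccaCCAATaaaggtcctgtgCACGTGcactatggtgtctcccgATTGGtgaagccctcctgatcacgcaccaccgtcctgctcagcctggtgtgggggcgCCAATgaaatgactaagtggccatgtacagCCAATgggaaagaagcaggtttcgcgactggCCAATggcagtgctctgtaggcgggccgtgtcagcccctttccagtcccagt

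The motifs were searched on both strands in a window of 300 bases per gene start, 250 of them before it. The carbohydrate response element was searched in a loose form set for this search, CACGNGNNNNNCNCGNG, where N is any base. The matches and shares given for it describe that form only, and other ways of writing the element could pick other genes. Txnip has 1 match, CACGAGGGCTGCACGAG (chr3:96557872-96557888), which lies 85 to 69 bases before the start. Such a match occurs in 120 of the 32851 windows in the table, or 0.365%, and in none of the windows of the other 4 members. The strict form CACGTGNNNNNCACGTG occurs in 0 windows. The E-box CACGTG, which that strict form holds at either end, has 1 match in Arrdc4, 193 to 188 bases before its start, and none in the other members. It is found in 7.15% of windows. The CCAAT box, in the letters CCAAT, is the site of the factor NF-Y and does not overlap the other matches shown. It has 2 matches in Txnip, 6 in Arrdc4, 3 in Arrdc2, 0 in Arrdc1 and 1 in each of 2 of the 3 windows of Arrdc3, and 37.4% of all windows hold at least 1. Those 2 windows of Arrdc3 overlap, and both matches are the same site (chr13:80883211-80883215). A match is a description of the letters and does not show binding.

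Genes that share the loose element of Txnip did not all move with it. Of the 115 genes with a match in a window, 84 were tested, of which 33 (39.3%) were called higher, 19 (22.6%) lower and 32 were not called, with a median log2 fold change of 0.05. Over all tested genes 29.5% were called higher and 29.3% lower, with a median of -0.0040. Within the 84, Txnip had the second largest rise. Above it stood Grik3, a glutamate receptor subunit gene, at 0.107 ± 0.105 CPM in the GFP libraries and 15.5 ± 0.819 CPM in the others (SD, n = 3), and at the other end was Prune2, with a log2 fold change of -1.01 (edgeR adjusted p = 2.04e-17). Of 1121 tested genes with an E-box, 38.3% were higher and 25.4% lower. Of 4184 with a CCAAT box, 27.8% were higher and 30.2% lower. These shares are descriptions, and Grik3 and Prune2 were picked after their values were seen.

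**Figure D1:**
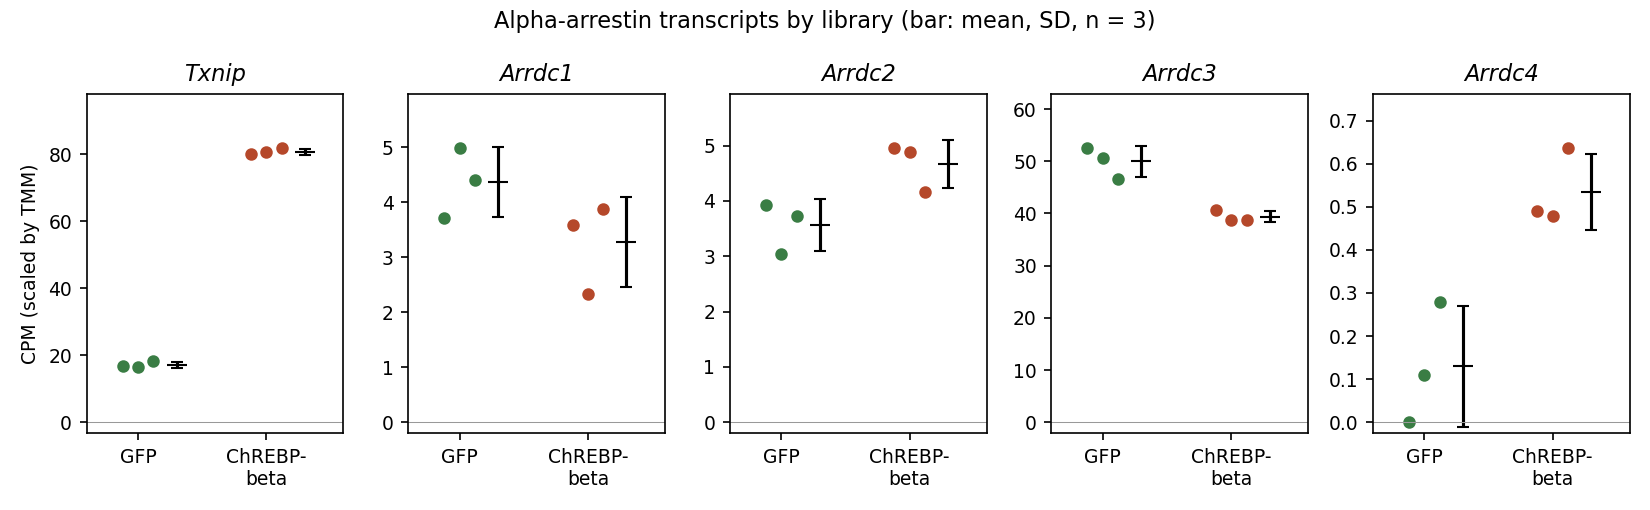
CPM (vertical axis, its own range for each gene) of the 5 alpha-arrestins in each of 3 GFP and 3 ChREBP-beta libraries (points), with the mean and SD beside them. Txnip stands at 16.6 to 18.2 CPM with GFP and at 80.0 to 81.8 CPM with ChREBP-beta, Arrdc3 is lower in all 3 ChREBP-beta libraries, and the groups of Arrdc1 overlap.

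Arrdc4, which like Txnip is known to restrain glucose uptake, was read at very low levels in both groups. The gene (ENSMUSG00000042659.15; chromosome 7, 68736995 to 68749241, minus strand, GRCm38; protein coding) was counted 0, 2 and 5 times in the GFP libraries and 9, 9 and 11 times in the ChREBP-beta libraries. All ChREBP-beta libraries lie above all GFP libraries, yet the highest level was 0.636 CPM. Only 1 library reached the 0.549 CPM that the filter on low counts required in 3, so Arrdc4 was not among the genes tested. The totals of 7 and 29 counts give a ratio of 4.19 (exact 95% counting interval 1.80 to 11.3, for counting error only), and the two-sided exact permutation test over the 6 libraries gave p = 0.1, the smallest that 3 against 3 allows. The size rests on GFP replicate 3, which holds 5 of the 7 GFP counts: without it the ratio was 9.90 (2.50 to 85.6), and without GFP replicate 1 it was 2.74 (1.17 to 7.41). When no filter was applied, edgeR gave a log2 fold change of 2.01 (SE 0.826, adjusted p = 0.0357), and DESeq2, whose own filter kept the gene, gave 2.06 (SE 0.934, adjusted p = 0.0555).

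Arrdc3 went the other way by a small step. ARRDC3 is known as an adaptor for integrin beta-4. Its gene (ENSMUSG00000074794.10; chromosome 13, 80883384 to 80896042, plus strand, GRCm38; protein coding) was read at 52.5, 50.7 and 46.7 CPM in the GFP libraries and at 40.6, 38.7 and 38.7 CPM in the ChREBP-beta libraries. Every ChREBP-beta library was below every GFP library, and the GFP libraries were the more spread (49.9 ± 2.96 and 39.3 ± 1.08 CPM, SD, n = 3). The log2 fold change was -0.34 (SE 0.058, edgeR adjusted p = 1.53e-05), 1.27-fold lower. Among the 3561 genes called lower it stood at place 2206 by size, and 36.5% of tested genes had a larger change in either direction.

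Neither Arrdc1 nor Arrdc2 was called. ARRDC1 is known for recruiting the budding protein TSG101 to the plasma membrane, where small vesicles are shed, and the role of ARRDC2 is the least described of the family. Arrdc1 (ENSMUSG00000026972.15; chromosome 2, 24925352 to 24935252, minus strand, GRCm38; protein coding) had 3.71, 4.98 and 4.40 CPM with GFP and 3.59, 2.34 and 3.87 CPM with ChREBP-beta. Those groups overlap, and ChREBP-beta replicate 2 is the low library. Its log2 fold change was -0.42 (SE 0.217, 95% interval -0.87 to 0.03, edgeR adjusted p = 0.102). Arrdc2 (ENSMUSG00000002910.11; chromosome 8, 70835129 to 70839720, minus strand, GRCm38; protein coding) had 3.92, 3.04 and 3.73 CPM with GFP and 4.95, 4.89 and 4.16 CPM with ChREBP-beta. Its groups do not overlap, but the log2 fold change of 0.39 (SE 0.190, 95% interval -0.0053 to 0.78) did not pass (edgeR adjusted p = 0.0838). Libraries held 44 to 92 counts of either gene. At the mean count of each group the counting error alone was 10.8% to 13.0% of the level, and it was larger in the library with 44. Neither interval excludes a change as large as that of Arrdc3, so these results do not show that the transcripts held their level.

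Over the family, 1 of 4 tested members was called higher and 1 lower, where 58.7% of all tested genes were called in either direction. With so much of the transcriptome called, being called does not set a member apart. The change of Txnip was 4.71-fold, and those of the other tested members were 1.27-fold to 1.34-fold in size, differences that were not tested against each other.

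**Figure D2:**
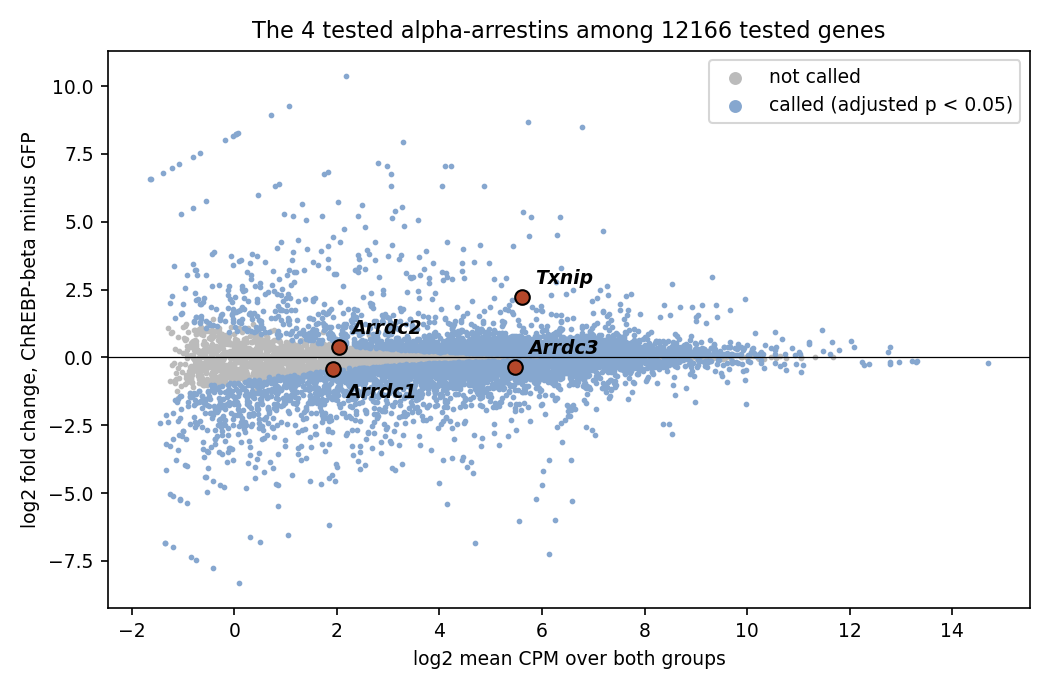
Each point is 1 of 12166 tested genes, with the log2 of its mean level in CPM on the horizontal axis and its log2 fold change on the vertical axis. Txnip, at 2.24, lies above the dense band of genes at its level, while Arrdc3 at -0.34, Arrdc2 at 0.39 and Arrdc1 at -0.42 lie within it. Arrdc4 was not tested and is not drawn.

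Levels of different genes were compared per kilobase of exon (the merged exons of each gene in GENCODE M21). With GFP the order was Arrdc3 at 7.97 ± 0.473 CPM per kilobase, Txnip at 5.49 ± 0.286, Arrdc1 at 1.74 ± 0.252, Arrdc2 at 1.10 ± 0.143 and Arrdc4 at 0.0321 ± 0.0347 (SD, n = 3). Neighbours in that order did not overlap in any library, Arrdc1 at 1.48 to 1.98 and Arrdc2 at 0.941 to 1.21 CPM per kilobase being the closest pair. With ChREBP-beta the order was Txnip at 25.9 ± 0.290 CPM per kilobase, Arrdc3 at 6.28 ± 0.172, Arrdc2 at 1.44 ± 0.136, Arrdc1 at 1.30 ± 0.325 and Arrdc4 at 0.132 ± 0.0218 (SD, n = 3). Here Arrdc2 (1.29 to 1.53) and Arrdc1 (0.932 to 1.54) overlapped and their order cannot be told. Among the 12029 tested genes with a length, Txnip moved from percentile 45.2 of the level per kilobase with GFP to percentile 85.7, and Arrdc3 from 56.6 to 49.5.

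The summed level of the 5 members rose from 16.3 ± 0.0789 to 35.0 ± 0.423 CPM per kilobase (SD, n = 3). Arrdc3 supplied the largest share of that sum in the GFP libraries, 48.8% ± 2.66 (SD, n = 3), and Txnip 33.6% ± 1.91. In the ChREBP-beta libraries Txnip supplied 73.9% ± 0.958 and Arrdc3 17.9% ± 0.466. The share of Arrdc1 went from 10.7% ± 1.56 to 3.71% ± 0.890 and that of Arrdc2 from 6.76% ± 0.879 to 4.13% ± 0.418, while Arrdc4 had 0.197% ± 0.214 and 0.378% ± 0.0587. Shares add up to a whole, so the rise of Txnip pulls down the shares of the others by construction, also that of Arrdc2. Among those others only Arrdc4, at very low counts, had a higher mean share with ChREBP-beta. A two-sided exact permutation test gave p = 0.1 for each of Txnip, Arrdc1, Arrdc2 and Arrdc3, the smallest possible with 3 against 3, and p = 0.3 for Arrdc4 (0.125 and 0.3 after Benjamini-Hochberg adjustment over the 5).

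Ratios of counts within a library need no scaling between libraries. Txnip had 0.317, 0.328 and 0.389 counts per Arrdc3 count in GFP replicates 1 to 3 and 1.97, 2.08 and 2.11 in ChREBP-beta replicates 1 to 3. The balance of this pair thus passed from below to above 1 count per count in every library. Arrdc2 had 1.06, 0.611 and 0.848 counts per Arrdc1 count with GFP and 1.38, 2.09 and 1.07 with ChREBP-beta, where the lowest ChREBP-beta and the highest GFP library nearly touch. Both of these 2 ratios, picked after the levels were seen, had p = 0.1 by the two-sided exact permutation test, the smallest possible.

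**Figure D3:**
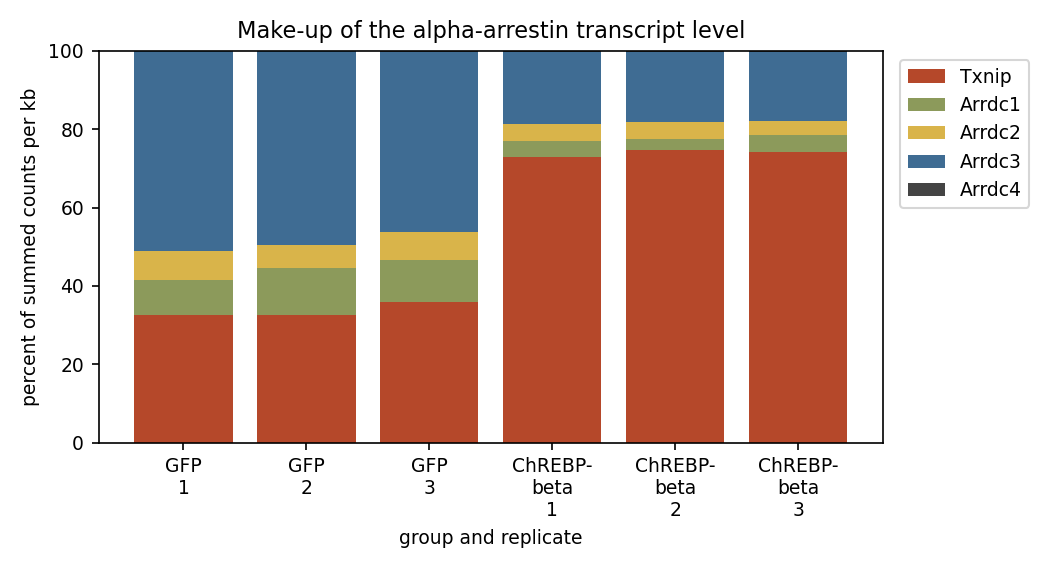
Stacked bars give, for each library, the percent of the summed counts per kilobase that each alpha-arrestin supplied. Arrdc3 fills 48.8% of the GFP bars on average and Txnip 73.9% of the ChREBP-beta bars, while Arrdc4 is too thin to see.

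Reads at Txnip could belong in part to another transcript. Gm15441, annotated as antisense, covers all 3927 bases of the gene on the opposite strand and is not analysed here. In the same way the noncoding 1700023H06Rik overlaps Arrdc3 on the opposite strand by 1301 bases. No source used here says whether counting used strand, so the reads of these pairs cannot be told apart. All counts of the members were whole in every library. Neighbours were sought among protein-coding genes whose symbol was among the deposited counts. Of the 10 nearest such genes, 6 were tested, of which 2 were called higher, 1 lower and 3 were not called, beside 58.7% called over all tested genes. Gm16253, which lies 15101 bases after Txnip, had 2 and 1 counts over the GFP and ChREBP-beta libraries, and Ehmt1, a histone methyltransferase gene 5738 bases from Arrdc1, stood at 65.7 and 67.2 CPM (edgeR adjusted p = 0.534). Kcnn1, a potassium channel gene 2329 bases from Arrdc2, stood at 2.17 and 1.54 CPM (edgeR adjusted p = 0.208). On their other sides Zmynd19, 14540 bases from Arrdc1, rose 1.85-fold and Il12rb1, a cytokine receptor gene 13705 bases from Arrdc2, rose 1.95-fold (edgeR adjusted p = 2.53e-11 and 2.53e-05). Nr2f2, an orphan nuclear receptor gene 1602703 bases from Arrdc4, was 1.46-fold lower (edgeR adjusted p = 1.36e-07).

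The genes with the profile most like a member were found by the distance between log2 CPM profiles over the 6 libraries, each centred on its GFP mean, among 11241 genes with a mean of at least 1 CPM. Nearest to Txnip were Mgam, an intestinal starch-digesting enzyme gene read at 0.526 and 2.91 CPM (distance 0.130), Ccn2, a matricellular growth factor gene at 53.1 and 259 CPM (0.138), Tanc2, a postsynaptic scaffold gene at 24.2 and 119 CPM (0.175), Olfm1, olfactomedin 1, at 68.7 and 332 CPM (0.188), and Acly, the ATP citrate lyase that supplies acetyl-CoA for fat synthesis, at 369 and 1624 CPM (0.192), each with GFP and with ChREBP-beta. Their folds ran from 4.40 for Acly to 5.48 for Mgam. Nearest to Arrdc3 were Mtfr1l (distance 0.0666), Gcc2 (0.0765) and Nradd (0.0800), with log2 fold changes of -0.34 to -0.32. Nearest to Arrdc2 were Klhl5 (0.160), Dhdds (0.164) and Pogk (0.168), and nearest to Arrdc1 were Tctn3 (0.311), Rnaset2b (0.328) and Mgl2 (0.335). A profile of 6 libraries in 2 groups is set mainly by its fold, and 583 genes had a Pearson correlation above 0.99 with Txnip over them, so likeness here is a description of size. Ranked by correlation in place of distance, 0 of the 5 neighbours of Txnip were again among its first 5.

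Most relatives of the alpha-arrestins with the arrestin fold were not called. Of 9 in the table, 6 were tested, 1 was higher, 0 were lower and 5 were not called (median log2 fold change -0.01, against -0.0040 over all tested genes). The shares over all tested genes were 29.5% higher and 29.3% lower. The beta-arrestin genes Arrb1 and Arrb2, whose proteins silence G protein-coupled receptors, stood at 38.1 ± 3.11 and 36.5 ± 1.09 CPM and at 15.6 ± 1.49 and 15.7 ± 1.23 CPM (SD, n = 3; edgeR adjusted p = 0.438 and 0.934). Vps26a, a subunit of the retromer that returns cargo from endosomes, was the member called higher, by 1.10-fold (edgeR adjusted p = 0.00279). Arrdc5, the remaining member of the alpha-arrestin family by name, and the visual arrestins Sag and Arr3 had no counts. For Arrdc5 the 0 counts in 6 libraries allow a level of up to 0.0274 CPM (3 counts over all libraries).

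The ligases that alpha-arrestins recruit belong to the NEDD4 family. Of 8 tested genes of that family, 5 were called higher, 1 lower and 2 were not called, with a median log2 fold change of 0.25, where 29.5% of all tested genes were called higher and 29.3% lower. Neither this list nor those that follow were tested against the other genes. Smurf1, which also limits TGF-beta and BMP signalling, had 85.6 ± 3.15 CPM with GFP and rose to 136 ± 2.64 CPM (SD, n = 3; 1.59-fold, edgeR adjusted p = 1.27e-13). Its paralog Smurf2 rose 1.35-fold and Hecw2 1.93-fold (edgeR adjusted p = 5.10e-10 and 1.69e-10). Wwp1 rose 1.28-fold and Itch, the ligase reported to ubiquitinate TXNIP itself, 1.11-fold (edgeR adjusted p = 1.17e-08 and 0.00380). Nedd4l was the member that fell, 1.44-fold, while Nedd4, the most abundant, stood at 1753 and 1731 CPM and its counts include split reads (edgeR adjusted p = 7.34e-07 and 0.559). With library size as the only scaling 3 of the 8 were called lower, Nedd4 and Wwp2 (log2 fold changes -0.06 and -0.13) besides Nedd4l, and 2 were lower with upper-quartile scaling or at a mean of at least 5 CPM. Of the ligase activators, Ndfip1 was 1.15-fold lower and Ndfip2 was not called.

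TXNIP is named for its binding to thioredoxin. Of 13 tested genes of the thioredoxin system 5 were higher, 3 lower and 5 not called, with a median of 0.0047, so that the share called was near the 58.7% of all tested genes. Thioredoxin itself, Txn1, stood at 214 ± 11.3 and 213 ± 8.17 CPM (SD, n = 3; edgeR adjusted p = 0.784), and mitochondrial Txn2 at 93.2 and 91.6 CPM (edgeR adjusted p = 0.622). Txnrd1, the cytosolic reductase that recharges thioredoxin, had 142 ± 0.337 CPM with GFP and rose 1.71-fold, to 244 ± 4.77 CPM (SD, n = 3; by edgeR, adjusted p = 1.32e-16). Prdx6 rose 1.23-fold, and Prdx2, a peroxide-removing partner whose counts include split reads, was 1.28-fold lower (edgeR adjusted p = 6.77e-07 and 2.31e-11). Among other reported partners of TXNIP, Ddit4, an inhibitor of mTORC1, rose 1.46-fold (edgeR adjusted p = 5.52e-08). Ppp2ca, a phosphatase subunit gene with split reads, was higher by 1.05-fold (edgeR adjusted p = 0.0453), and this call was lost under 8 of 15 alternatives, GFP replicates 2 and 3 and ChREBP-beta replicates 1 and 3 among the libraries left out. Cops5 was not called, and Nlrp3 and Zbtb32 had too few counts to be tested.

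Glucose transporters and several receptors are cargo of alpha-arrestins. Of 7 tested glucose transporter genes 2 were higher, 2 lower and 3 not called, with a median of 0.12, which is near the shares over all tested genes (29.5% higher and 29.3% lower). Slc2a1, the basal transporter GLUT1 that TXNIP sends into endocytosis, had 102 ± 4.38 CPM with GFP and rose 1.15-fold, to 117 ± 6.38 CPM (SD, n = 3; by edgeR, adjusted p = 3.17e-04). Slc2a4, the insulin-responsive transporter GLUT4, was 6.48-fold lower but only at 0.869 ± 0.0858 and 0.128 ± 0.0798 CPM (SD, n = 3; edgeR adjusted p = 3.22e-04), and Slc2a8 rose 1.42-fold (edgeR adjusted p = 0.0109). Slc2a9 was 1.26-fold lower (edgeR adjusted p = 0.0491), a call lost under 9 of 15 alternatives and when any library except ChREBP-beta replicate 2 was left out. Of 6 tested cargo receptors 0 were higher, 3 lower and 3 not called, with a median of -0.17, beside 58.7% of all tested genes called in either direction and 29.3% lower. Slc11a2, an iron transporter handled by ARRDC1 and ARRDC4, had 72.1 ± 2.30 CPM with GFP and was 1.68-fold lower, at 43.0 ± 1.81 CPM (SD, n = 3), and Notch1 fell 1.31-fold (edgeR adjusted p = 5.02e-12 and 5.43e-07). The integrin gene Itgb4 was not called, at 9.97 and 11.8 CPM (edgeR adjusted p = 0.0608), and without ChREBP-beta replicate 3 the number of receptors called higher was 1.

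Vesicle-budding genes of the ESCRT machinery, which ARRDC1 engages, had 5 of 11 tested members higher, 2 lower and 4 not called, with a median of 0.08, a share called that is near the 58.7% of all tested genes. Tsg101, the partner of ARRDC1, was not called (65.5 and 68.5 CPM; by edgeR, adjusted p = 0.268). Vps37b, whose counts include split reads, rose 1.49-fold, Vps4b 1.24-fold and Pdcd6ip, which encodes ALIX, 1.21-fold (edgeR adjusted p = 5.48e-07, 2.76e-08 and 7.19e-08). The count of lower members was 4 with library size as the only scaling, and 1 without GFP replicate 2, GFP replicate 3 or ChREBP-beta replicate 1.

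The 2 glucose-sensing factor genes listed beside Mlxipl were called lower, by small steps, where 29.3% of all tested genes were called lower. Mlxip, which encodes MondoA, had 47.7 ± 2.48 CPM in the GFP group and 36.7 ± 3.39 CPM in the other (SD, n = 3; 1.30-fold lower, edgeR adjusted p = 2.31e-05), and Mlx, whose counts include split reads, was 1.19-fold lower (edgeR adjusted p = 0.00503, or 0.0535 without ChREBP-beta replicate 2). Of 11 other reported regulators of these genes 4 were higher, 3 lower and 4 not called, with a median of 0.03, again near the 58.7% called over all tested genes. Prkaa2, the muscle-enriched catalytic subunit of AMP-activated kinase, had 3.74 ± 0.0451 CPM with GFP and rose 2.53-fold, to 9.47 ± 0.566 CPM (SD, n = 3; by edgeR, adjusted p = 2.06e-08). Nfya, a subunit of the CCAAT-binding factor NF-Y, rose 1.16-fold, and Nr3c1, the glucocorticoid receptor gene, was 1.11-fold lower (edgeR adjusted p = 1.57e-04 and 1.26e-04).

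**Figure D4:**
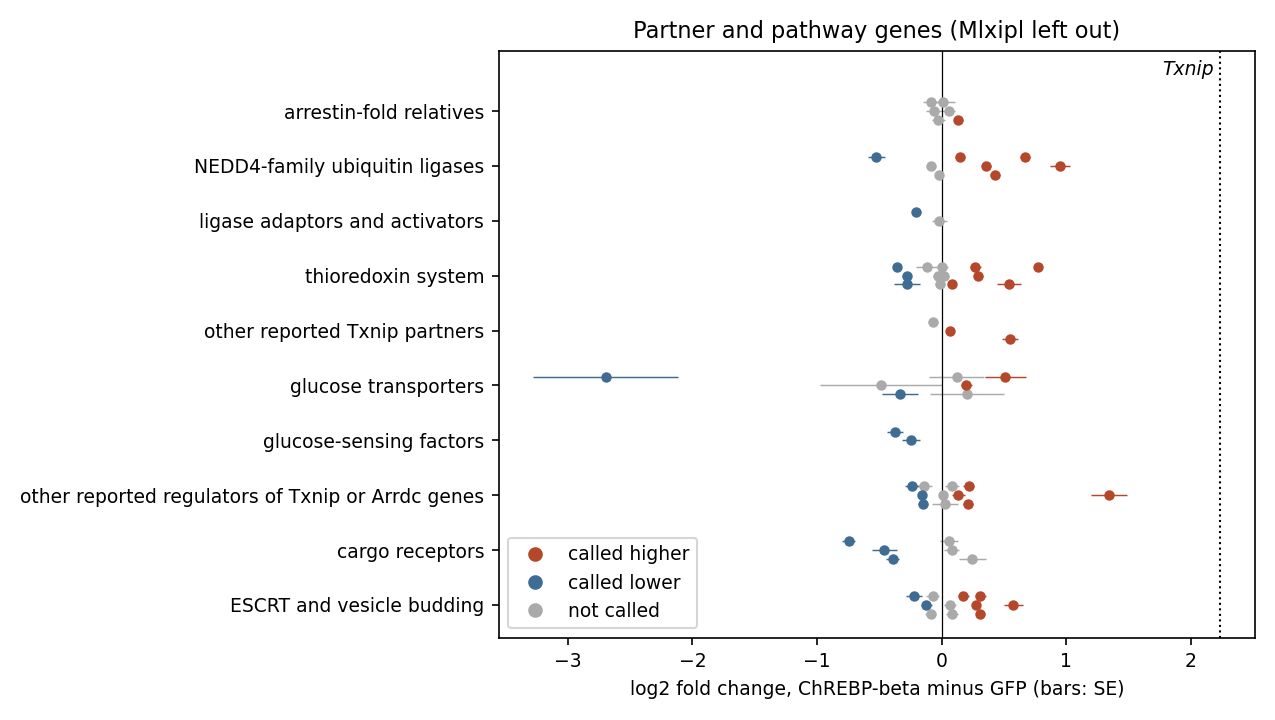
Log2 fold change (horizontal axis, bars are SE) of each tested gene of 10 lists of relatives, partners, cargo and regulators, with the level of Txnip drawn as a dotted line. No drawn gene that rose reaches the 2.24 of Txnip, Prkaa2 at 1.34 comes closest, and Slc2a4 at -2.70 lies farthest to the left. Mlxipl is left out because it is the supplied gene.

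The values of the members were stable to different degrees. Txnip kept a log2 fold change between 2.19 and 2.29 and Arrdc3 one between -0.39 and -0.31 over 15 alternatives each, all of them called. Arrdc1 lay between -0.55 and -0.22 and Arrdc2 between 0.29 and 0.46 over 14 alternatives each, and none of these called them (lowest adjusted p = 0.0617 and 0.0657).

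**Figure D5:**
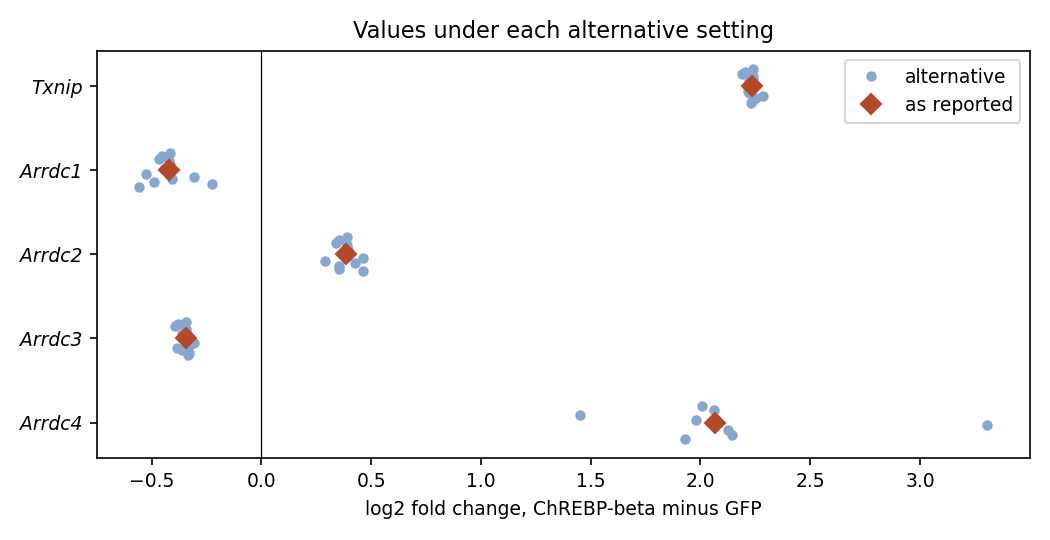
Log2 fold change of each alpha-arrestin (horizontal axis) as reported (diamond) and under each alternative scaling, filter, tool, block or left-out library that gave a value for it (points). The points of Txnip span 2.19 to 2.29, and the 8 points of Arrdc4 span 1.45 to 3.31. For Arrdc4 the diamond and the points for left-out libraries are ratios of low counts. Its points without a filter and by DESeq2 are model estimates, and no other scaling or block was run for it.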

How the data were processed

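Per the labels' protocols, Trizol-extracted total RNA went into standard Illumina libraries, with no selection or strand kit named. Groups were taken from the sample titles. The authors deposited 1 table of estimated counts per gene symbol, not normalized, of which 7.74% of values are not whole numbers. The submitters' processing notes list TopHat2 2.0.0, Bowtie2 2.0.0.5 and fastp, with no roles, and the chicken assembly GRCg6a, although the symbols are those of mouse. A mouse build, annotation, counting tool or strand setting is not given in these sources.

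Rows of 24 repeated symbols were summed and counts rounded. Testing used edgeR 4.0.16 in R 4.3.3: filterByExpr (minimum count 10, minimum total 15) kept 12166 genes, sizes were scaled by TMM, and the quasi-likelihood test was two-sided, adjusted by Benjamini-Hochberg over all genes and called below 0.05. SE is the log2 fold change over the root of F. The common biological coefficient of variation was 3.44%. In counts simulated for this comparison (12106 genes tested), 84.0% of genes changed 1.25-fold were called. Recovery was 85.7% for 1.5-fold changes, 91.8% for 2-fold and 100% for 4-fold ones. Of 190 calls 12 were false. Few genes were changed in that simulation, unlike in the data, and every gene was given the common coefficient of variation. Recovery was taken over genes of all levels, so it does not give the recovery at the low counts of Arrdc1 and Arrdc2. Replicates of a group differed by a chi-square per degree of freedom of 2.15 to 3.93, above sampling noise, so none was treated as a library deposited again. This does not show that they came from separate cultures. Gene positions and exon lengths came from a symbol match to GENCODE M21 (GRCm38), possibly another build than that of the deposited counts. All 5 members matched a RefSeq promoter entry.

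The members, lists, motifs and tests were chosen with earlier results of these data known. Named genes are the members, the up to 3 members of each list called with the smallest adjusted p, the 5 genes nearest Txnip and the 3 nearest each other tested member, and Mlxipl. Other genes were named after their values were seen, and 1 gene that the rule names is not reported here. The alternatives tried were scaling by upper quartile, RLE, library size, or TMM without Mlxipl, the members and the 10 most abundant genes, no filter or one at 5 CPM on average, limma-voom (limma 3.58.1) and DESeq2 1.42.0, the replicate number as a block, each library left out, and lengths of the longest transcripts.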

Additional observations from a re-analysis of the deposited data

How the results depend on the processing

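The calls of Txnip and Arrdc3 held under every alternative run, and Arrdc1 and Arrdc2 were called under none; they were not tested at a mean CPM of at least 5. Arrdc4 was tested without a filter, where it was called higher (log2 fold change 2.01, against a count ratio of 2.07 on the log2 scale), which made 2 members higher in place of 1, and by DESeq2, where it was not called. Its log2 ratio ran from 1.45 to 3.31 as single libraries were left out. Shares of the family level kept their direction with the longest transcripts and without each library. Genes called numbered 2989 to 3733 higher and 3111 to 4166 lower over the alternatives, and no scaling moved the median of all genes by over 0.1 (log2). No pairing of samples by replicate number was seen, which does not show that there was none, and the labels state none. Deviations of same-numbered libraries correlated at -0.0182, 0.0015 and -0.0400, and no library correlated best with its own number. With the replicate block, 6902 genes were called in place of 7145 and Txnip kept its call. Of 1374 values of 92 other genes, 1289 kept direction and call, 39 lost and 15 gained a call, and 31 uncalled values changed sign; 0 called values reversed. Of 300 list counts 271 stayed within 1.5 times. The genes nearest Arrdc1, Arrdc2 and Arrdc3 shared 0, 0 and 1 of 3 with a ranking by correlation. Depth limits Arrdc4 most, with 65.5% counting error at the mean count of the GFP libraries, and Arrdc1 and Arrdc2 next.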
